A study of Oryza sativa with 17 samples.

Results

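Grains of the black rice cultivar Nanheinuo (BR), collected 10 days after flowering (DAF), were compared with grains of the red rice cultivar Yuhongdao 5815 (RR), collected 20 DAF, all from plants whose leaves had received deionized water instead of iron sulfate. The comparison used the 3 BR control and 3 RR 20 DAF control libraries, 6 of the 17 in the series, and 17898 of 32657 gene models that reached an FPKM (fragments per kilobase of transcript, scaled to the mapped fragments of the library) of at least 1 in 2 or more of these 6 libraries. The series asked how foliar iron affects grains of coloured rice, and its other libraries come from iron-sprayed BR and RR plants and from RR grains at 15 DAF. Plants of both cultivars were grown in pails in a randomized layout, and every foliar solution, the water control included, carried nicotinamide and Tween 80. The labels give the tissue as grain without separating hull, pericarp, embryo and endosperm. They give a day for the RR libraries only, and the BR day comes from the methods of the study. Each colour was represented by 1 cultivar and here by 1 day, so that variety and day cannot be told apart in any value below. In whole grains, fewer cells of a type and less RNA per cell cannot be told apart either.

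A rice grain at the filling stage is mostly endosperm, in which starch synthases, branching enzymes and debranching enzymes build starch while glutelins and prolamins are packed into protein bodies. As the grain matures, the embryo and the aleurone (the outer cell layer of the endosperm) accumulate late embryogenesis abundant (LEA) proteins, dehydrins and small heat shock proteins, which accompany desiccation. The colour lies in the pericarp and seed coat, where the flavonoid pathway leads to anthocyanins in black rice and to proanthocyanidins in red rice.

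The transcript pool was far more concentrated in BR. The 10 highest genes of each library took 47.6% to 52.54% of its summed FPKM in BR and 10.29% to 12.95% in RR 20 DAF. A fixed set of 50 genes, the highest by mean FPKM over the BR and RR 20 DAF libraries, was also compared. Its share was 70.2% to 75.0% in BR and 19.9% to 22.3% in RR 20 DAF. An exact two-sided permutation test gave p = 0.1, the smallest that 3 against 3 libraries allow, and 0.112 after adjustment over 28 shares. This set was chosen from the values tested, and its RR 20 DAF share is not that of the 50 highest RR 20 DAF genes. Genes above 0 numbered 22150 to 22390 in BR and 20050 to 21733 in RR 20 DAF, and the median level of the genes tested was 1.72 to 1.96 in BR and 3.15 to 3.20 in RR 20 DAF on the log2(FPKM + 1) scale. Pearson correlations across genes were 0.958 to 0.973 among the BR libraries, 0.920 to 0.956 among the RR 20 DAF libraries and 0.483 to 0.579 between the groups. RR 20 DAF replicate 2 stood apart in leaf-type transcripts. The summed FPKM of 7 chlorophyll-binding, Rubisco small subunit and photosystem genes was 315 there, against 2.89 and 13.4 in the other RR 20 DAF libraries and 2.62 to 6.30 in BR. Without that library 2042 genes were called higher and 10395 lower in BR, close to the counts below. As for the grain label, storage protein transcripts were abundant in every library, at 37.4% to 43.3% of the summed FPKM in BR and 1.39% to 3.55% in RR 20 DAF.

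FPKM values are relative to the total of a library, so that a level as given depends on the share that the highest genes take. Differences are therefore given as deposited (as given) and again after the median of the genes tested was set equal in all libraries (centred). A gene was called at a limma adjusted p below 0.01 and a 1.5-fold difference on log2(FPKM + 1). As given, 12937 genes were called, 72.3% of those tested, of which 2074 (11.6%) were higher and 10863 (60.7%) lower in BR, and the median difference of all genes was -1.26. After centring, 8334 genes were called (46.6%), 4448 higher (24.9%) and 3886 lower (21.7%). All 2074 genes called higher as given were also called higher after centring, whereas 3886 of the 10863 called lower were still called lower. Centring raised every BR minus RR 20 DAF difference by the same amount, so that this asymmetry follows from the scaling. A higher call that was kept after centring is therefore no separate support. Genes whose BR libraries all lay above or all lay below the RR 20 DAF libraries numbered 2525 (14.1%) and 12172 (68.0%). Of the genes called higher, 341 were listed at 0 in all RR 20 DAF libraries, and of those called lower 281 were listed at 0 in all BR libraries.

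**Figure D1:**
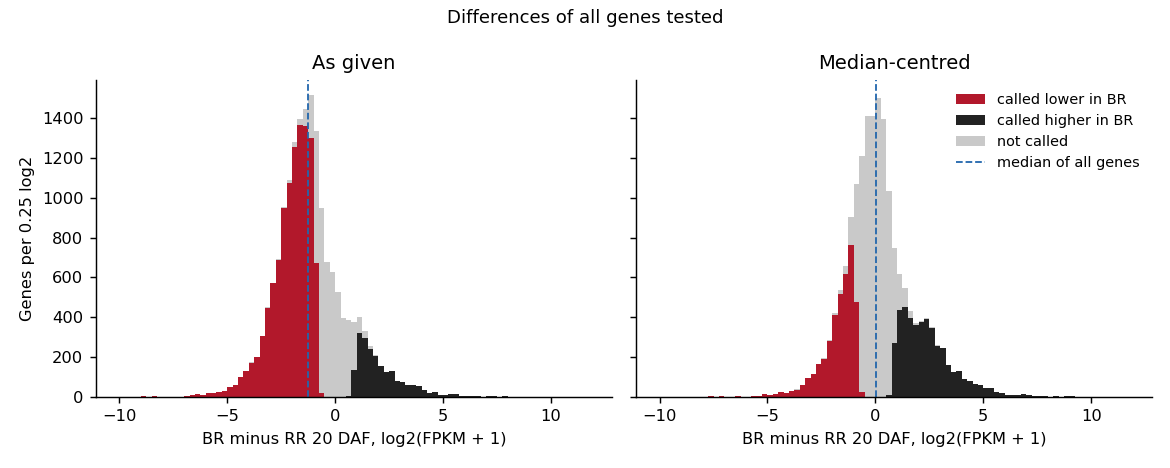
Number of genes per 0.25 log2 bin against the difference BR minus RR 20 DAF on log2(FPKM + 1), as given (left) and after centring (right), with called genes in black (higher in BR) or red (lower) and other genes in grey. The dashed median lies at -1.26 as given and at 0.04 after centring, and the called genes pass from mostly lower to 4448 higher and 3886 lower.

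Storage protein genes were higher in BR, apart from GLB, which the list holds by its short name only. Of 13 list members tested, 12 were called higher, as given and after centring, against 11.6% and 24.9% of all genes. The median difference of the list was 4.53 on log2(FPKM + 1) against -1.26 for all genes. The A-type glutelin gene GLUA-3 had FPKM of 19753, 20542 and 19306 in the BR libraries and 166, 58.2 and 63.6 in the RR 20 DAF libraries, a difference of 7.85 ± 0.49 (SE). GLUA-1 had 58795, 45148 and 51684 in BR against 5834, 1250 and 1514 in RR 20 DAF, and the gene listed as prolamin had 71042, 58837 and 63828 against 5656, 2356 and 3015. All BR libraries lay above all RR 20 DAF libraries for each of these genes, and within RR 20 DAF replicate 1 was the highest. The B-type glutelins followed the same order, GLUB-4 with means of 17286 ± 550 in BR and 253 ± 212 in RR 20 DAF (SD, n = 3) and GLUB-5 with 21913 ± 1333 and 380 ± 283. The seed allergen gene RA14 had 24321, 19786 and 15771 in BR and 2735, 1503 and 1242 in RR 20 DAF. In the 2 RR libraries at 15 DAF, GLUA-3 stood at 6007 and 5000, GLUA-1 at 29878 and 55314 and prolamin at 45361 and 47922. GLB (LOC4337720) had 1.02, 2.19 and 3.04 in BR and 7.51, 12.5 and 9.10 in RR 20 DAF, and its lower call ended after centring. Whether this gene encodes a storage protein was not checked. Glutelin and allergen genes occur in near-identical copies, and how shared reads were divided between them is not given in the sources used here, so that the values of single copies are uncertain. The prolamin call ended without BR replicate 1 or 2 (limma adjusted p = 0.0151 and 0.0144), and the calls of GLUA-1, RA14 and prolamin ended under quantile normalization, with differences of 3.02, 2.07 and 2.46, and without the filter on low values (limma adjusted p = 0.136, 0.081 and 0.248).

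Starch synthesis genes followed the storage proteins, with 5 of 8 higher, 2 lower and a median difference of 2.78, and 6 higher and none lower after centring. Of all genes, 11.6% were higher and 60.7% lower as given, and 24.9% and 21.7% after centring. ISA, an isoamylase that trims branched glucan, had 250, 512 and 366 in BR and 4.84, 4.33 and 2.38 in RR 20 DAF (difference 6.26 ± 0.32, SE). ALK, the starch synthase that lengthens amylopectin chains, had 154, 148 and 127 against 4.45, 8.26 and 8.86. Neither gene had overlapping groups. Granule-bound starch synthase OsGBSS1, which makes amylose, stood at 1609, 1632 and 1555 in BR and 151, 45.0 and 71.6 in RR 20 DAF. AGPS2, the small subunit of ADP-glucose pyrophosphorylase, had 1338, 1671 and 1305 against 239, 127 and 81.5, and the branching enzyme gene Q-enzyme 1731, 2511 and 2622 against 724, 440 and 399, a call that ended without the filter on low values (limma adjusted p = 0.0114). The RR 15 DAF libraries held 1531 and 1297 for OsGBSS1, 1379 and 1522 for AGPS2 and 144 and 162 for ALK, values within or near the BR range. Starch synthase SS1 had the smallest gap among these genes, at 315, 250 and 177 against 128, 136 and 137, and was called higher after centring only (0.84 ± 0.29 as given, 2.15 centred), although without BR replicate 3 it was also called as given (limma adjusted p = 0.00701). SS2 and FLO6 had FPKM under 4 in every library and were called lower as given only, SS2 not without BR replicate 3 (limma adjusted p = 0.0117). Among 14 regulators of the endosperm tested, 3 were higher and 6 lower as given, and 7 were higher and none lower after centring. The bZIP factor gene BZIP52 had 18.6, 34.3 and 28.3 in BR and 0.147, 0 and 0.840 in RR 20 DAF, and OsNF-YB-1, an endosperm subunit of the NF-Y factor, had 14.4, 38.1 and 38.1 against 5.19, 3.98 and 0.697. PBF1 (LOC4347507), which the list holds by its short name only, had 29.7, 33.5 and 30.5 against 77.1, 43.6 and 41.2 and was not called either way. Whether this gene encodes the prolamin-box binding factor was not checked.

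Sugar supply genes split within their families. Of 13 sugar transporters tested, 5 (38.5%) were higher and 6 (46.2%) lower as given, and 7 (53.8%) higher and 3 (23.1%) lower after centring. Of all genes, 11.6% were higher and 60.7% lower as given, and 24.9% and 21.7% after centring. Os8N3, the sugar exporter OsSWEET11, had 114, 181 and 112 in BR, was listed at 0 in all RR 20 DAF libraries and had 6.33 and 9.90 at RR 15 DAF. OsSWEET15 had 45.6, 66.3 and 50.4 in BR and 0.0727, 0 and 0.245 in RR 20 DAF, and OsSWEET6a had 15.6, 12.6 and 17 in BR and was listed at 0 in RR 20 DAF. These exporters were well above the RR 20 DAF libraries in every BR library. OsSWEET1a ran the other way, with 0.446, 1.97 and 3.74 in BR and 27.7, 29.2 and 20.2 in RR 20 DAF, as did OsSWEET4 with 13.7, 17 and 22.6 against 527, 130 and 138. The sucrose transporter gene OsSUT1 had 10.6, 21.7 and 30.9 in BR and 103, 156 and 146 in RR 20 DAF. OsSWEET1a, OsSWEET4 and OsSUT1 were called lower as given and after centring. Among 25 invertase, sucrose synthase and related genes, 7 (28.0%) were higher and 10 (40.0%) lower, and 12 (48.0%) and 5 (20.0%) after centring. Sucrose synthase OsSUS2, which splits sucrose for starch synthesis, had 120, 144 and 117 in BR and 5.90, 8.10 and 4.31 in RR 20 DAF. The cell wall invertase gene OsCIN1 had 11.1, 15.6 and 11.8 in BR against 0, 0.135 and 0, and the fructokinase gene OsFKII had 33.4, 29.0 and 26.3 against 2.15, 1.32 and 1.75. No library of RR 20 DAF reached the lowest BR library for these genes. The sucrose phosphate phosphatase gene OsSPP2 (LOC4328274) had the opposite order, with 2.52, 2.55 and 4.07 in BR and 30.8, 36.8 and 49.7 in RR 20 DAF. Of 7 trehalose phosphatase genes, 4 were higher and 1, OsTPP7, was lower (4.45, 4.82 and 5.17 against 43.0, 19.6 and 50.6).

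The genes for pyruvate orthophosphate dikinase, which regenerates phosphoenolpyruvate, ran in opposite directions. OsPPDKB had 219, 406 and 330 in BR and 32.6, 15.0 and 10.8 in RR 20 DAF, a difference of 4.06 ± 0.40 (SE). CPDK2 had 11.4, 21.4 and 38.9 in BR and 587, 553 and 512 in RR 20 DAF, a difference of -4.63 ± 0.39. Each was called in its direction as given and after centring, and at RR 15 DAF the levels were 75.1 and 43.2 for OsPPDKB and 109 and 167 for CPDK2.

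Of the flavonoid pathway genes described here, those from chalcone synthase onwards were higher in BR than in RR 20 DAF. No gene for dihydroflavonol 4-reductase or flavonoid 3'-hydroxylase is among them. The study had picked 11 gene models as pathway enzymes on these samples, so that their direction is no independent evidence. Of the 9 that were tested, 6 were higher, 2 lower and 1 not called as given, and 6 were higher and none lower after centring. Shares of all genes were 11.6% higher and 60.7% lower as given, and 24.9% and 21.7% after centring. At the entry to the pathway, the phenylalanine ammonia-lyase gene LOC4330034 had 56.8, 46 and 56.9 in BR and 245, 131 and 108 in RR 20 DAF. A further such gene, LOC4330036, had 57.3, 43.5 and 79.6 against 122, 254 and 143. Both were called lower as given, and neither after centring (-0.19 and -0.17). The call of LOC4330034 also ended without BR replicate 2 (limma adjusted p = 0.0126), and that of LOC4330036 without BR replicate 1 or 2 or RR 20 DAF replicate 2 (0.0142, 0.0184 and 0.0116). The 4-coumarate-CoA ligase gene Os4CL2 had 7.00, 5.58 and 8.75 in BR against 0, 0.533 and 0.0511, while Os4CL3 overlapped between the groups at 5.57, 3.62 and 6.70 against 5.18, 9.64 and 1.54. Chalcone synthase OsCHS1, which makes the first flavonoid skeleton, had 185, 97.1 and 213 in BR, 0, 2.02 and 0.379 in RR 20 DAF and 6.68 and 4.30 at RR 15 DAF (difference 6.61 ± 0.43, SE, BR minus RR 20 DAF). The chalcone isomerase genes LOC4351321 and LOC4349607 had 13.1, 6.36 and 11.2 and 22.9, 7.20 and 10.2 in BR, and 1.25 or less in each RR 20 DAF library. Replicate 2 was the lowest BR library for each of these 3 genes and the highest of the RR 20 DAF libraries. The flavanone 3-hydroxylase gene LOC9270463 had 69.5, 40.9 and 72.9 in BR, was listed at 0 in all RR 20 DAF libraries and had 2.88 and 5.51 at RR 15 DAF. The anthocyanidin synthase gene LOC4325716, at the last step before the coloured anthocyanidins are glycosylated, had 51.1, 13.4 and 21.7 in BR and was listed at 0 in the RR libraries of both days. The gene annotated as flavonoid 3',5'-hydroxylase, LOC4332919, was low throughout, with 2.30, 2.49 and 3.86 in BR and 0.0329 or less in RR 20 DAF. In the wider list of 14 phenylpropanoid and flavonoid enzymes, 7 were higher and 4 lower, with a median of 1.12, and 8 and 2 after centring. The lower members that kept their call were OsCAD9 of the cinnamyl alcohol dehydrogenase family, with 0.0408, 0 and 0.0683 in BR against 8.19, 13.2 and 12.2, and HCT1 with 13.5, 19.6 and 15.7 against 74.1, 96.4 and 99.2.

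**Figure D2:**
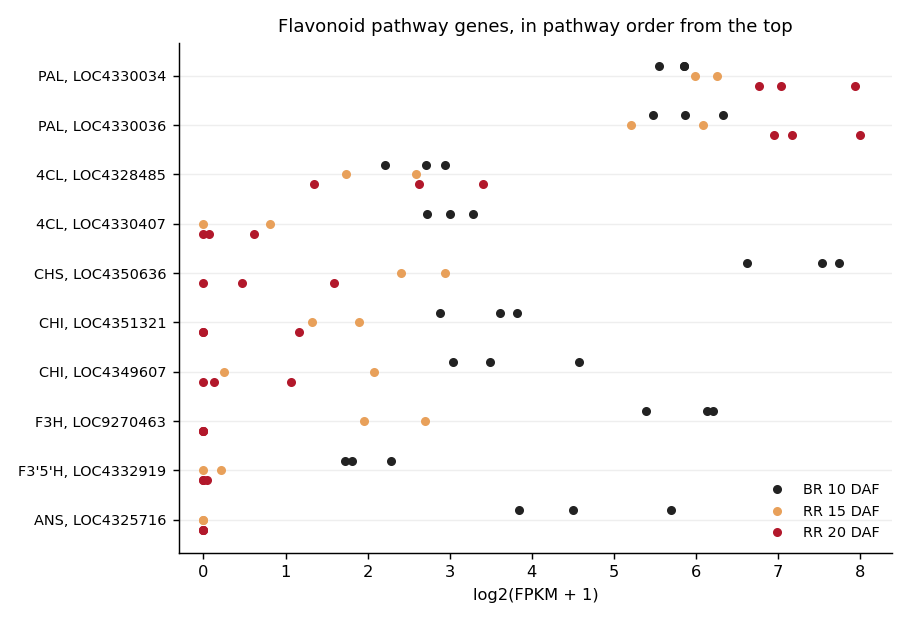
Level of 10 phenylpropanoid and flavonoid genes in each water-sprayed library (horizontal axis, log2(FPKM + 1); a point per library), in pathway order from the top. BR points lie right of all RR 20 DAF points from OsCHS1 (LOC4350636) to anthocyanidin synthase (LOC4325716), whereas the PAL genes lie lower in BR on this scale as given (neither call held after centring) and the 4CL gene LOC4328485 overlaps.

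Floral and ovule regulators were a further group high in BR. Of 19 MADS-box genes tested, 11 (57.9%) were higher and 4 (21.1%) lower as given, and 14 (73.7%) higher and none lower after centring. Of all genes, 11.6% were higher and 60.7% lower as given, and 24.9% and 21.7% after centring. OsMADS24 had 48.5, 53.8 and 56.7 and OsMADS45 had 45.4, 53.4 and 56.4 in BR, and both were listed at 0 in all RR 20 DAF libraries. These SEPALLATA-type genes are close paralogs whose reads could be shared. The ovule-identity gene OsMADS13 had 11.1, 14.8 and 17.6 in BR and 0 in RR 20 DAF. The AGAMOUS-type genes OsMADS58 and OsMADS3 had 10.7, 11.4 and 10.8 and 12.9, 15.8 and 14.2 in BR, and at most 0.438 in any RR 20 DAF library. At RR 15 DAF the same genes stood between 0 and 2.15. The YABBY-family gene OsYAB5 had 44.3, 38.1 and 43.4 in BR and 0, 0.935 and 0 in RR 20 DAF. OsMADS2, a petal and stamen type gene, had 3.87, 6.62 and 3.31 against 18.4, 16.6 and 20.3, and its lower call ended after centring.

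Cell wall genes were more often higher than lower in BR, with 14 of 42 (33.3%) higher and 9 (21.4%) lower as given and 24 (57.1%) and 4 (9.5%) after centring. Of all genes, 11.6% were higher and 60.7% lower as given, and 24.9% and 21.7% after centring. OsXRT5, a xyloglucan endotransglucosylase gene, had 143, 138 and 111 in BR and 5.50, 6.74 and 1.17 in RR 20 DAF. OsCslF6, which makes mixed-linkage glucan of cell walls, had 37.1, 26.0 and 19.1 against 2.85, 1.62 and 1.52. The cellulose synthase gene OsCesA2 had 24.9, 23.1 and 32.2 against 5.08, 8.46 and 8.49. Groups did not overlap for these genes. OsCslE1 and OsCslA5, of related families, were lower, with 0.173, 0.0451 and 0 against 21.0, 14.2 and 14.5 and 1.11, 1.40 and 3.79 against 30.3, 27.0 and 37.3.

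The gene with the largest difference in favour of BR among genes with a short name was OsGER3, a germin-like protein gene, with 2992, 1782 and 3276 in BR and 1.21, 10.3 and 0 in RR 20 DAF, a difference of 9.79 ± 0.74 (SE) as given and 11.10 centred. Its RR 15 DAF levels were 78.7 and 102. Of genes without a short name, LOC4328876 had 1723, 1907 and 2117 against 10.5, 4.60 and 6.93, and LOC4338444 had 3778, 2791 and 4650 against 19.7, 9.59 and 20.8. These 3 genes were chosen among genes whose groups did not overlap, so that the separation of their libraries is no result. The abundant transcript LOC4329275 had 29610, 31953 and 25380 in BR and 19824, 6489 and 5155 in RR 20 DAF. Its groups did not overlap, yet its difference (1.73 ± 0.87, SE, as given and 3.03 centred) was called only where RR 20 DAF replicate 1 was left out (limma adjusted p = 0.00405).

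Seed maturation genes were low in BR. Of 11 tested, 9 (81.8%) were lower and 1 higher as given, and 8 (72.7%) and 1 after centring, with a median difference of -4.04. Of all genes, 60.7% were lower as given and 21.7% after centring, with a median of -1.26. The dehydrin gene RAB21 had 63.2, 125 and 314 in BR and 4514, 5558 and 3767 in RR 20 DAF (difference -5.06 ± 0.56, SE). LEA19 had 92.1, 233 and 515 against 4463, 3141 and 3533, and rab25 had 45.3, 77.2 and 224 against 1915, 1615 and 1339. BR replicate 3 was the highest BR library for each of these genes and still lay far below every RR 20 DAF library. OsVP1, the regulator that couples abscisic acid to seed maturation, had 1.51, 3.19 and 5.78 in BR and 48.5, 66.9 and 61.0 in RR 20 DAF. RAB16D was listed at 0 in BR and had 12, 40.6 and 43.7 in RR 20 DAF. At RR 15 DAF, RAB21 had 1243 and 1706 and OsVP1 had 27.3 and 22.8, between the groups compared. The LEA gene EM had 110, 219 and 439 against 936, 2008 and 1597, a lower call that ended after centring, and the oleosin gene OLE18 overlapped at 278, 488 and 676 against 373, 1204 and 416. OsDhn1 was the member that was higher in BR, with 13.4, 30.4 and 28.6 against 0, 4.93 and 2.37, a call that ended with a pseudocount of 0.1 (limma adjusted p = 0.0106). In the list of 73 abscisic acid genes, 36 were lower and 6 higher as given, and 10 lower and 25 higher after centring, so that the prevailing direction of that list depended on the scaling, as did that of all genes. The kinase gene OsSAPK6 had 5.11, 4.51 and 8.46 in BR and 266, 104 and 103 in RR 20 DAF, and the phosphatase gene OsPP2C61 had 0.482, 0.401 and 0.347 against 14.4, 12.4 and 21.1, and both kept their lower call after centring.

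Heat shock proteins and chaperones were lower in BR, with 48 of 61 (78.7%) lower and 6 higher as given and 27 (44.3%) lower and 9 higher after centring. Of all genes, 60.7% were lower as given and 21.7% after centring. The median difference was -2.17 against -1.26 for all genes. OsHsp17.9A, a small heat shock protein gene, had 31.3, 45.1 and 116 in BR and 6128, 5143 and 4010 in RR 20 DAF (difference -6.49 ± 0.49, SE). OsHsp23.2 had 0.943, 1.28 and 3.73 against 152, 380 and 106, and OsHsp26.7 had 8.47, 13 and 14.1 against 373, 906 and 407. The DnaJ-type gene OsDjA6 had 12.4, 15.3 and 19.0 in BR against 1482, 791 and 732, and CLPB1, the Hsp100 disaggregase, had 9.70, 16.8 and 21.2 against 330.5, 689 and 344. All of these groups were separate, and the RR 15 DAF libraries lay between them, at 320 and 653 for OsHsp17.9A and 248 and 192 for OsDjA6. The 6 members called higher included BIP1, an Hsp70 of the endoplasmic reticulum, where storage proteins fold, which had 748, 871 and 532 in BR and 11.5, 12.4 and 7.88 in RR 20 DAF (5.95 ± 0.28), with 1016 and 665 at RR 15 DAF. Of 11 protein disulfide isomerase genes tested in the list, 2 were higher and 8 lower as given, and 2 and 2 after centring. The higher genes OsPDIL2-3 and OsPDIL1-1 had 42.3, 45.4 and 51.7 and 285, 713 and 566 in BR, against 4.47, 3.16 and 5.13 and 114, 106 and 139. BIP1 and both of these genes were among the higher calls as given, all of which were kept after centring.

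Of 53 genes of reactive oxygen metabolism, 30 (56.6%) were lower and 7 higher as given, a share near the 60.7% of all genes, and 16 were lower and 15 higher after centring. The catalase gene CAT-A had the largest difference in favour of RR 20 DAF among genes with a short name (-9.05 ± 0.48, SE). Its levels were 0.153, 0 and 1.07 in BR and 1200, 326 and 904 in RR 20 DAF, with 10.0 and 18.3 at RR 15 DAF. CAT-B had 32.5, 33.5 and 54.3 against 352, 289 and 337. OsPEX11-1, of the peroxisome proliferation family, had 0.104, 0.321 and 0.608 against 90.9, 107 and 146. ICL, the isocitrate lyase of the glyoxylate cycle that turns stored lipid into sugar, had 0.814, 0.847 and 10.3 in BR and 350, 164 and 90.3 in RR 20 DAF. Every RR 20 DAF library exceeded every BR library for these 4 genes, as for 68.0% of all genes tested. For CAT-A, OsPEX11-1 and ICL this was a condition of their choice, and CAT-B was chosen after its values were seen. The alternative oxidase gene OsAOX1A went the other way, with 5.87, 5.92 and 4.47 in BR against 0, 0.641 and 0.0346.

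Hydrolases went both ways, with 8 of 25 (32.0%) higher and 9 (36.0%) lower as given and 10 (40.0%) and 6 (24.0%) after centring. Of all genes, 11.6% were higher and 60.7% lower as given, and 24.9% and 21.7% after centring, so that higher calls were more frequent in this list. The α-amylase gene AMY1.2 had 0.249, 0 and 0.335 in BR and 1965, 44.4 and 123 in RR 20 DAF, where replicate 1 was far above the others. OsSAG12, a cysteine protease gene, was listed at 0 in BR and had 17.6, 548 and 38.6 in RR 20 DAF. Replicate 2, the library with leaf-type transcripts, was far above the others. At RR 15 DAF the gene had 0 and 274, and the library with 274 had a summed FPKM of 5.71 for the leaf-type genes. The part of leaf-type transcripts in these values was not tested. The β-glucosidase gene Os10bglu34 had 14.3, 14.9 and 47.8 in BR and was listed at 0 in RR 20 DAF, and the chitinase gene OsChia2a had 9.25, 6.05 and 3.39 against 0, 0.375 and 0. Of 12 aquaporin (water channel) genes, 5 (41.7%) were lower and 3 higher as given, and 3 and 4 after centring, with a median of -0.66 against -1.26 for all genes. Among the lower members, OsTIP1 of the vacuolar membrane had 1.13, 0.846 and 0.962 in BR and 103, 79.1 and 58.6 in RR 20 DAF, and OsPIP1;1 of the plasma membrane had 17.9, 17 and 16.5 against 599, 488 and 399.

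**Figure D3:**
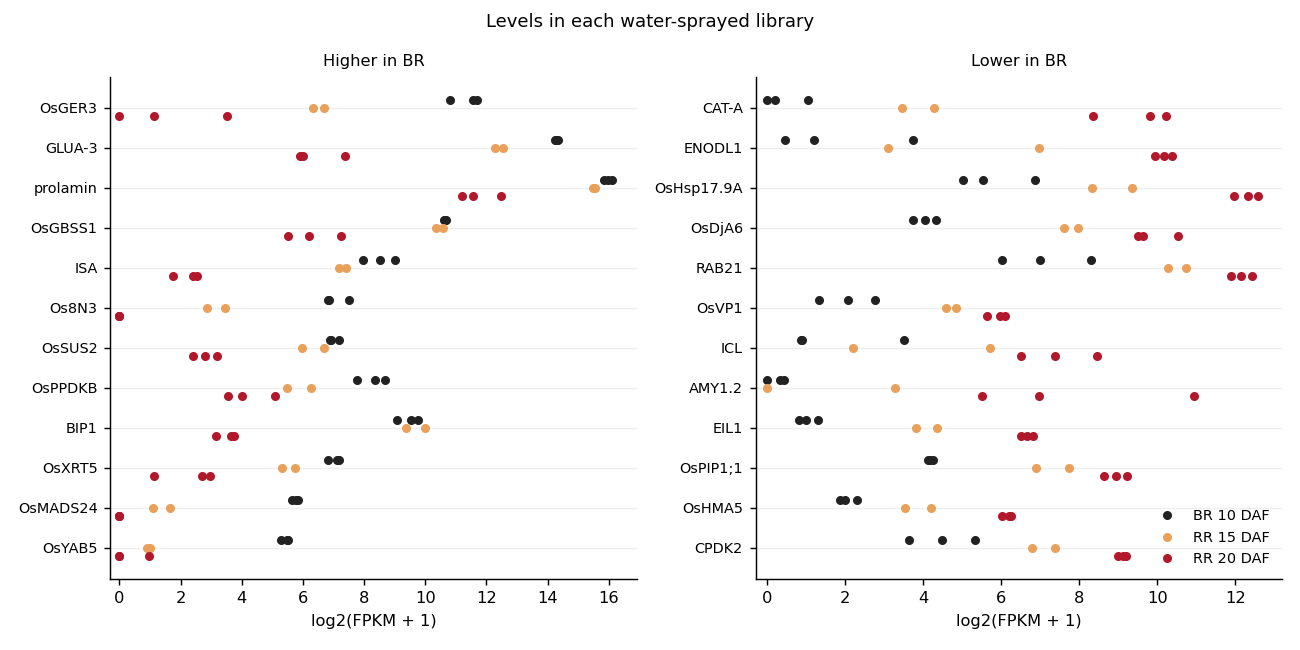
Level of 12 genes higher (left) and 12 genes lower in BR (right) in each water-sprayed library (horizontal axes, log2(FPKM + 1); a point per library). The BR points lie right of all RR 20 DAF points in the left panel and left of them in the right panel, from OsGER3 (1782 to 3276 against 0 to 10.3 FPKM) to CPDK2 (11.4 to 38.9 against 512 to 587 FPKM).

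Among 40 genes of iron and other metals, 21 (52.5%) were lower and 7 (17.5%) higher in BR as given, and 8 (20.0%) lower and 12 (30.0%) higher after centring, against 60.7% and 11.6%, and 21.7% and 24.9%, of all genes. OsHMA5 (LOC4336625), a copper-transporting ATPase gene, had 2.94, 2.62 and 3.94 in BR and 72.5, 64.1 and 75.1 in RR 20 DAF (difference -4.11 ± 0.21, SE). The metal tolerance protein genes OsMTP3 and OsMTP1 had 2.02, 2.03 and 2.02 against 30.7, 42.5 and 47.6 and 7.76, 6.31 and 10.7 against 46.6, 76.5 and 70.2. Each of the 3 was lower as given and after centring. Metallothioneins, small metal-binding proteins, split. OsMT-II-1a had 119, 217 and 379 in BR and 2956, 6713 and 4381 in RR 20 DAF, whereas OsMT-I-1b had 54.8, 47.9 and 112 in BR against 2.89, 5.53 and 4.25. The vacuolar iron transporter genes split as well, with OsVIT1 at 3.81, 2.79 and 4.94 against 0, 0.203 and 0 and OsVIT1.2 at 0.373, 0.784 and 2.39 against 12.1, 9.32 and 9.42. OsNAS2, which makes the iron chelator nicotianamine, had 1.59, 1.88 and 0.817 in BR and at most 0.0405 in RR 20 DAF.

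Hormone and growth lists changed their prevailing direction with the scaling in several cases. The counts of these lists stand beside 60.7% lower and 11.6% higher of all genes as given and 21.7% and 24.9% after centring, so that the background turned with the scaling as well. Auxin genes were 28 (63.6%) lower and 7 higher of 44 as given and 8 lower and 15 higher after centring, and cytokinin genes were 11 lower and 5 higher of 26 as given and 5 and 10 after centring. Ethylene and jasmonate genes were 17 lower and 9 higher of 39 as given and 7 and 17 after centring, phytate and phosphate genes 11 lower and 3 higher of 25 and then 5 and 7, and NAC, WRKY and DREB factor genes 13 lower and 4 higher of 30 and then 6 and 11. Embryo and meristem markers were 5 lower and 2 higher of 18 as given and 3 and 3 after centring, and green tissue genes 7 lower and 1 higher of 18 and then 4 and 2. Cell cycle and histone genes were 20 (60.6%) lower and 2 higher of 33, the share of all genes, and 10 and 10 after centring. Gibberellin genes were 7 lower and 1 higher of 9, and 3 and 1 after centring. The gibberellin receptor gene gid1 had 6.14, 5.74 and 6.27 in BR and 31.9, 41.0 and 41.6 in RR 20 DAF. Of the genes named EIL1, for ethylene-insensitive-like transcription factors, LOC4332697 had 0.984, 0.752 and 1.44 in BR and 111, 90.1 and 99.1 in RR 20 DAF, and LOC107276358 had 1.13, 0.954 and 1.91 against 104, 103 and 106. The genes share their short name and their levels run together, so that reads may have been split between them. GOS2, a translation initiation factor gene, had 833, 885 and 464 in BR and 6168, 8018 and 9389 in RR 20 DAF. The early nodulin-like gene ENODL1 had 1.27, 0.366 and 12.4 against 1163, 983 and 1322, and the unnamed genes LOC4344595 and LOC4329812 had 8.44, 0 and 0 and 14, 14.9 and 149.9 in BR, against 727 to 1604 and 4389 to 14105 in RR 20 DAF.

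**Figure D4:**
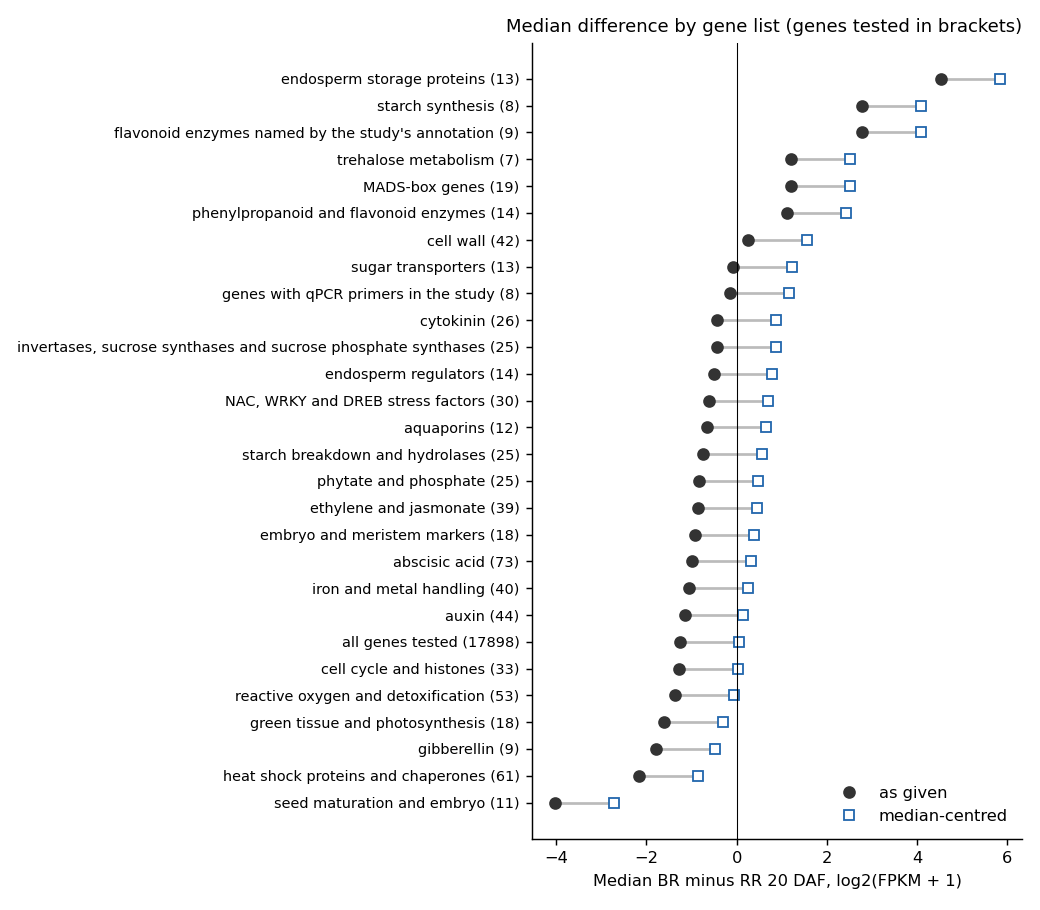
Median difference BR minus RR 20 DAF of each gene list on log2(FPKM + 1), as given (filled circles) and after centring (open squares), with the number of genes tested in brackets. Storage proteins (4.53), starch synthesis (2.78) and the study's flavonoid enzymes (2.77) lie highest, seed maturation (-4.04) lies lowest, and all genes move from -1.26 to 0.04.

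Of 8 genes for which the study designed qPCR primers and which were tested, 2 were higher and 2 lower as given, and 4 and 1 after centring. Among all genes tested, 11.6% were higher and 60.7% lower as given, and 24.9% and 21.7% after centring. LOC4341944 had the largest gap, with 1.29, 1.27 and 4.72 in BR and 763, 415 and 314 in RR 20 DAF. LOC4340373 had 12.8, 5.07 and 6.19 in BR against 0.331, 0.253 and 0.857.

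The same varieties and days were also sampled after the iron spray, in 6 libraries that the water comparison did not use. There 12619 genes were called (70.5%), 2087 higher (11.7%) and 10532 lower (58.8%) in BR, and 8826 (49.3%) after centring, 4854 higher (27.1%) and 3972 lower (22.2%). Of the genes called higher under water, 1642 were called higher under iron, which is 79.2% of the water calls and 78.7% of the iron calls. Of those called lower, 9683 were called lower, 89.1% and 91.9%. No gene was called in opposite directions. Differences under iron were 9.10 for GLUA-3, 7.88 for OsCHS1, 6.93 for LOC4325716, -9.17 for CAT-A, -7.94 for OsHsp17.9A and -7.10 for RAB21. Mean FPKM of LOC4325716 was 122 in iron-sprayed BR and 0 in iron-sprayed RR 20 DAF. Tested directly with limma over the 12 libraries, the difference between the water and the iron comparison was called for 0 genes, with 1551 genes at an unadjusted p below 0.05 and a smallest adjusted p of 0.0447. This count does not show that the spray left the comparison unaltered.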

How the data were processed

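HISAT2 alignment against IRGSP-1.0 and StringTie assembly of the Illumina reads were done by the authors, who deposited FPKM values per gene and library. Tool versions and strand or multimapping settings are not given in the sources used here, so that antisense and overlapping genes were not separated. Low FPKM values showed no common step between libraries (at most 12 of 4333 low genes shared a ratio within 0.001 log2), so that the depth behind a value is unknown. The replicates are described as biological, and p-values measure the spread between these libraries.

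Genes expressed in the 6 libraries (FPKM 1 or above in 2 of them) were tested with limma 3.58.1 in R 4.3.3 on log2(FPKM + 1), with 2 group means, a mean-variance trend, two-sided tests and Benjamini-Hochberg adjustment over 17898 genes. Calls required 0.01 as the limit of the adjusted p together with a 1.5-fold difference on that scale, which understates the change of low genes. The same test was run after median centring, on the iron-sprayed libraries, and for the difference between both comparisons over 12 libraries. The count model of the authors was not run, since FPKM are not counts. Alternatives covered scaling, pseudocount, filter, thresholds, libraries in the fit, a replicate block and leaving out each library.

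Of 32657 gene IDs, 27491 were found in a RefSeq table of assembly ASM3414082v1, used for names only since it is not the build of the files, 3920 are new models and 1246 were not found. Lists match short names, and members and lists were chosen with earlier results of these data known. Named genes were the 15 with the largest difference in each direction among short-named genes called both as given and centred without overlap, within each list the 4 with the lowest p, the 10 highest genes of each group, the genes given by number in the flavonoid and qPCR lists and the 2 genes without a short name with the largest difference in each direction. Not all of these are described. Groups that do not overlap were a condition for the genes chosen by largest difference, and choice by lowest p favours them. Separation of the named genes is therefore no separate result. Chosen after their values were seen were GLB, Q-enzyme, SS1, SS2, FLO6, OsNF-YB-1, PBF1, OsSWEET4, OsSUT1, OsMADS2, OsMADS3, OsCesA2, LEA19, rab25, EM, OLE18, OsDhn1, CLPB1, OsPDIL2-3, OsPDIL1-1, CAT-B, OsAOX1A, OsVIT1, OsVIT1.2 and OsNAS2. Promoter motifs, sequences and RR 15 DAF control replicate 1 were not analysed here.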

Additional observations from a re-analysis of the deposited data

Results flagged for a closer look

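The difference between the water and the iron comparison was below an adjusted p of 0.05 for 2 genes, neither of which reached the 0.01 used for calls. LOC107281151 was listed at 0 in all BR control libraries and had FPKM of 10.95, 8.40 and 4.76 in the RR 20 DAF control libraries, with a mean of 0 in iron-sprayed BR and 0.462 in iron-sprayed RR 20 DAF. Its black minus red difference under water lay 2.59 further down than that under iron (control minus iron -2.59 on log2(FPKM + 1), limma adjusted p = 0.0447). LOC112939045 was listed at 0 in BR and had 18.2, 15.3 and 8.64 in RR 20 DAF, with means of 0.0136 and 0.756 in the iron-sprayed groups, and its control minus iron value was -3.15 (limma adjusted p = 0.0447). Groups of 3 libraries were not examined for single outlying values.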

How the results depend on the processing

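Scaling moved the counts most. Against 2074 higher and 10863 lower in BR as given, 4448 and 3886 were called after median centring (8334 in all), 4230 and 4924 after quantile normalization, and 3779 and 5904 after rescaling without the 50 highest genes. The share of calls that were higher was 16.0% as given and 53.4% after centring. With FPKM of at least 5 in 2 libraries, fewer genes (12070) were tested and 1244 were higher. For the iron-sprayed libraries, 4854 higher and 3972 lower were called after centring, and 3692 and 5700 after the rescaling. Same-numbered BR and RR 20 DAF replicates did not deviate together (correlations -0.002, -0.013 and -0.070), and a replicate block gave 2079 higher and 10690 lower. Leaving out each library in turn gave 11104 to 13076 calls, 1749 to 2043 higher and 9319 to 11033 lower, and for the iron-sprayed libraries 10761 to 12668, 1683 to 2047 and 9070 to 10811. The difference between both comparisons gave 0 to 2 calls, 1 without BR control replicate 1 and 2 each without RR 20 DAF control replicate 3, BR Fe replicate 2 or RR 20 DAF Fe replicate 2. The other alternatives stayed within 1.5 times of these counts. Of 107 genes named, 90 kept their direction and call in every alternative that tested them, 12 lost a call in at least 1 and 3 gained 1. The sign changed in at least 1 alternative for 5, FLO6 after centring (0.24, not called) and Os4CL3, OLE18, PBF1 and LOC4329275, which were not called as given. The causes of these shifts were not tested. Depth is unknown, which limits what can be said of genes listed at 0.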
